A study of Mus musculus with 3 samples.

Results

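S1pr1, S1pr4, Selplg, Itga4, Itgb1, Itgb7, Itgal, Itgam and Itgb2 were taken by symbol from the gene list of a single-cell RNA-seq study of mouse bone marrow. They are 9 of its 32285 genes. S1pr1 and S1pr4 encode G protein-coupled receptors for sphingosine-1-phosphate, a lipid that is more concentrated in blood than in tissue. Selplg encodes PSGL-1, the ligand through which leukocytes roll on selectins, and the other 6 genes encode subunits of leukocyte integrins. No selectin gene is among the 9.

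In bone marrow, cells that carry S1PR1 follow the sphingosine-1-phosphate gradient out into the blood sinuses, while CXCR4 and its ligand CXCL12 hold them in place. Integrins are pairs of an alpha and a beta chain: the ITGA4 chain pairs with ITGB1 to bind VCAM-1 and fibronectin or with ITGB7 to bind MAdCAM-1, and the ITGB2 chain pairs with ITGAL (LFA-1) or with ITGAM (Mac-1) to bind ICAM-1 and other ligands. Integrins and PSGL-1 anchor precursors to the marrow stroma and let mature leukocytes stick to vessel walls.

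Marrow cells of C57BL/6J mice came from femur and tibia and enriched on a Ficoll gradient, which removes most dense granulocytes and red cells, in all 3 groups. MI-E stands for mice with myocardial infarction and EMPA, an abbreviation that the labels do not spell out, MI for mice whose left anterior descending coronary artery was ligated, and Sham for sham-operated mice. Each group is 1 droplet library (10x Genomics 3' v3.1), and how many animals went into a library and how long after surgery they were killed are not given in the sources used here. With 1 library per group there was no replicate and no test, and all intervals below are 95% intervals that cover counting error alone.

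After filtering, 19616 MI-E, 20459 MI and 21273 Sham cells were kept, with a median of 2582 in MI-E, 3113 in MI and 2132 in Sham UMIs (unique transcripts) per cell. Clusters named from marker genes gave 16 classes with at least 50 cells in every library, of which 12 had at least 200 and were used for ratios. The level of a gene in a class is its summed UMIs divided by all UMIs of that class, on the CPM scale. Monocyte-like cells came mostly from a cluster led by Saa3 and Vcan in MI-E (2920 cells) and MI (3880 cells), and mostly from a cluster led by Ifi27l2a and Cx3cr1 in Sham (2716 cells). Mature neutrophil-like cells likewise came from a cluster led by Cstdc4 and Cxcl2 in MI-E (1962 cells) and MI (2492 cells), and from one led by Slc7a11 and Egr1 in Sham (1328 cells). A second monocyte-like cluster, led by Ass1 and Nrg1 with division genes such as Racgap1 among its leading genes, held 1437 MI-E, 1169 MI and 879 Sham cells and is given beside the whole monocyte-like class. Between 152 and 167 cell barcodes were shared by any pair of libraries, at most 0.733% of the smaller one. As a measure of neutrophil RNA in other droplets, S100a8 and S100a9 in mature naive B-like cells stood at 3.87% in MI-E, 5.02% in MI and 3.96% in Sham of their all-cell level. Neutrophil-like cells stood at 363% in MI-E, 283% in MI and 598% in Sham of that level. Equal percents in different libraries therefore stand for different amounts relative to neutrophil-like cells.

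Each gene had its own spread over the classes, as the plot of levels by class and library shows. S1pr1 was high in B and T classes and near 0 in monocyte-like and neutrophil-like cells. Itgam and Itgb2 were high in neutrophil-like, macrophage-like and patrolling monocyte-like cells, and Itgb2 in NK-like cells as well. Itga4 was high in pro-B-like, NK-like, patrolling monocyte-like and T-like cells, and Itgb7 in conventional dendritic-like and basophil and mast-like cells.

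**Figure D1:**
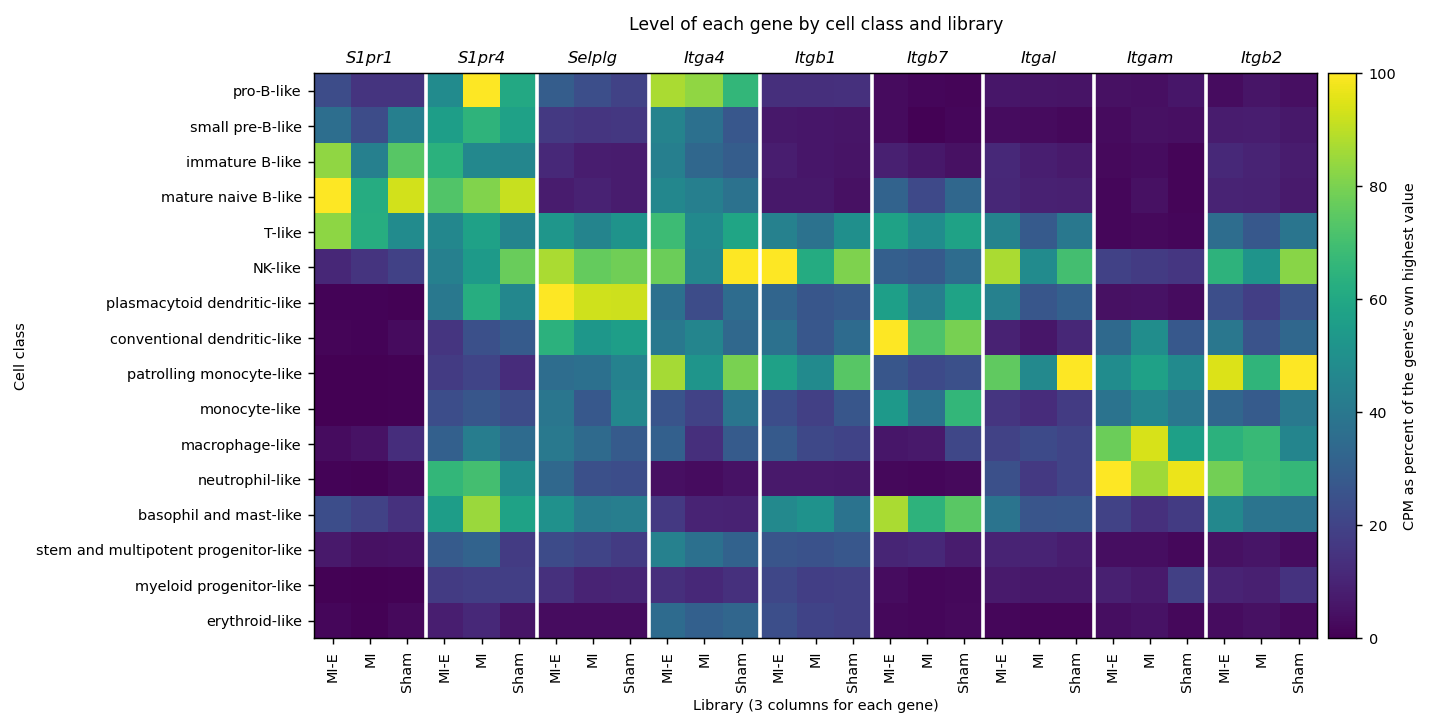
Level of each of the 9 genes in 16 cell classes (rows) and the MI-E, MI and Sham libraries (3 columns per gene), coloured as a percent of that gene's own highest CPM. Colours compare classes and libraries within a gene and not between genes. S1pr1 peaked in mature naive B-like cells at 287 CPM in MI-E, and Itgam in neutrophil-like cells at 597 CPM in MI-E.

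Over the 12 classes, a gene and class pair was read when its mean over the libraries compared was at least 20 CPM. In MI against Sham, 7 of 89 pairs were at least 1.5-fold higher and 12 at least 1.5-fold lower in MI, against 8.68% higher and 5.08% lower among all 68524 pairs of any gene. In MI-E against MI, 9 of 92 pairs were higher and 4 lower in MI-E, against 4.11% and 2.6% of 70799 pairs. In MI-E against Sham, 8 of 88 pairs were higher and 2 lower in MI-E, against 12.1% and 4.46% of 69631 pairs. As shares of the pairs read, the 9 genes gave 7.87% higher and 13.5% lower in MI over Sham, 9.78% and 4.35% in MI-E over MI, and 9.09% and 2.27% in MI-E over Sham. The share lower in MI than in Sham and both shares of MI-E over MI, higher and lower, stood above the background. The other shares stood below it. The comparisons share libraries, so a low value in MI enters MI over Sham as lower and MI-E over MI as higher. The 9 genes were chosen with earlier results of these data known.

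**Figure D2:**
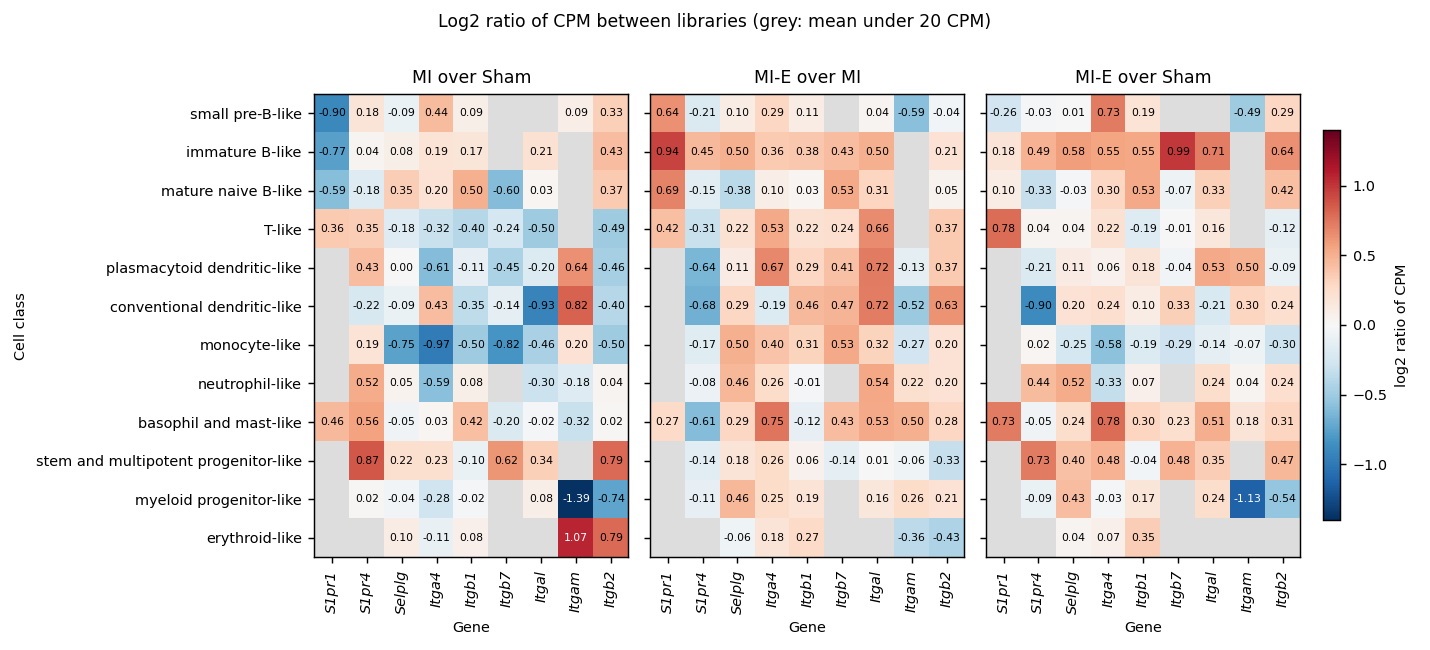
Log2 ratio of CPM for the 9 genes (columns) in 12 classes (rows), with 1 panel each for MI over Sham, MI-E over MI and MI-E over Sham. Red is higher and blue lower in the library named first, and grey marks pairs whose mean was under 20 CPM. The S1pr1 column is blue in the 3 B classes of the MI over Sham panel and red in those of the MI-E over MI panel, and the monocyte-like row is blue from Selplg to Itgb7 in MI over Sham.

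S1pr1 (mm10 chr3:115710433-115715072, minus strand), the receptor through which lymphocytes leave marrow, was highest in mature naive B-like, immature B-like and T-like cells in all 3 libraries. Along the B lineage it was lower in MI than in the other two libraries at every stage from small pre-B-like to mature naive B-like. T-like cells did not share that order: there the MI-E library was highest and Sham lowest. Mature naive B-like cells, the IgD-positive recirculating stage, had 287 CPM in MI-E, 178 CPM in MI and 268 CPM in Sham. Immature B-like cells had 240.1 CPM in MI-E, 125 CPM in MI and 212 CPM in Sham. Small pre-B-like cells had 103 CPM in MI-E, 66.4 CPM in MI and 124 CPM in Sham. The MI value lay outside the intervals of both other libraries in mature naive B-like and immature B-like cells, and the MI-E and Sham intervals overlapped in all 3 stages. In small pre-B-like cells the MI-E and MI intervals met at their ends (85.2 to 124 and 50.8 to 85.3 CPM).

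Set against Sham, S1pr1 in MI was lower by 1.87-fold (95% interval 1.43 to 2.47) in small pre-B-like cells, 1.70-fold (95% interval 1.4 to 2.08) in immature B-like cells and 1.51-fold (95% interval 1.36 to 1.68) in mature naive B-like cells. In MI-E it was higher than in MI by 1.55-fold (95% interval 1.13 to 2.16) in small pre-B-like cells, 1.92-fold (95% interval 1.54 to 2.41) in immature B-like cells and 1.62-fold (95% interval 1.45 to 1.81) in mature naive B-like cells. Among all genes read in MI over Sham, 4.7%, 3.85% and 2.28% were at least 1.5-fold lower in these 3 classes, and in MI-E over MI 6.16%, 6.74% and 1.89% were at least 1.5-fold higher. These 6 differences kept their sign under every alternative run. The mature naive B-like value for MI over Sham passed 1.5-fold under 6 of 10 alternatives, and the small pre-B-like value for MI-E over MI under 7 of 9. Pro-B-like cells, with 82 cells in MI, had 66.3 CPM in MI-E, 42.8 CPM in MI and 42.7 CPM in Sham, and their intervals overlapped.

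The order of libraries was the same when S1pr1 was read as the share of cells with at least 1 UMI after each cell was thinned to 1000 UMIs. Among mature naive B-like cells the share came to 24.7% in MI-E, 16.3% in MI and 23.1% in Sham, leaving out 1461 in MI-E, 1088 in MI and 250 in Sham cells with fewer UMIs. Without thinning it was 26.9% in MI-E, 16.7% in MI and 30.6% in Sham. Plasmacytoid dendritic-like cells, which had next to no S1pr1, gave 0.374% in MI-E, 0.396% in MI and 0.129% in Sham after thinning and 0.917% in MI-E, 0.783% in MI and 0.639% in Sham without it. Median UMIs per cell were 2604 in MI-E, 2727 in MI and 3031 in Sham for plasmacytoid dendritic-like cells and 1042 in MI-E, 1013 in MI and 1339.5 in Sham for mature naive B-like cells, so the class without the receptor was the deeper one. In small pre-B-like cells the thinned share was 8.90% in MI-E, 5.41% in MI and 10.7% in Sham.

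Genes tied to S1pr1 followed its order only in part. KLF2 is a transcription factor that switches S1pr1 on, and Klf2 was likewise lowest in MI at all 3 stages, with 476 CPM in MI-E, 413 CPM in MI and 827 CPM in Sham in small pre-B-like cells. It had 1094 in MI-E, 854 in MI and 936 in Sham CPM in immature B-like cells and 809 in MI-E, 668 in MI and 1018 in Sham CPM in mature naive B-like cells. Unlike S1pr1, Klf2 was below Sham in MI-E as well as in MI, with no overlap of intervals, in small pre-B-like and mature naive B-like cells. CD69 binds S1PR1 protein and removes it from the cell surface, and Cd69 was lower in MI-E and in MI than in Sham in small pre-B-like (188 in MI-E, 201 in MI and 323 in Sham CPM), immature B-like (126 in MI-E, 103 in MI and 205 in Sham CPM) and mature naive B-like cells (183 in MI-E, 227 in MI and 282 in Sham CPM). Cxcr4, the retention receptor, was higher in MI-E and in MI than in Sham: it had 172 CPM in MI-E, 147 CPM in MI and 77.2 CPM in Sham in immature B-like cells and 510.0 in MI-E, 561 in MI and 334 in Sham CPM in small pre-B-like cells. Neither Cd69 nor Cxcr4 was lowest in MI at all 3 stages.

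**Figure D3:**
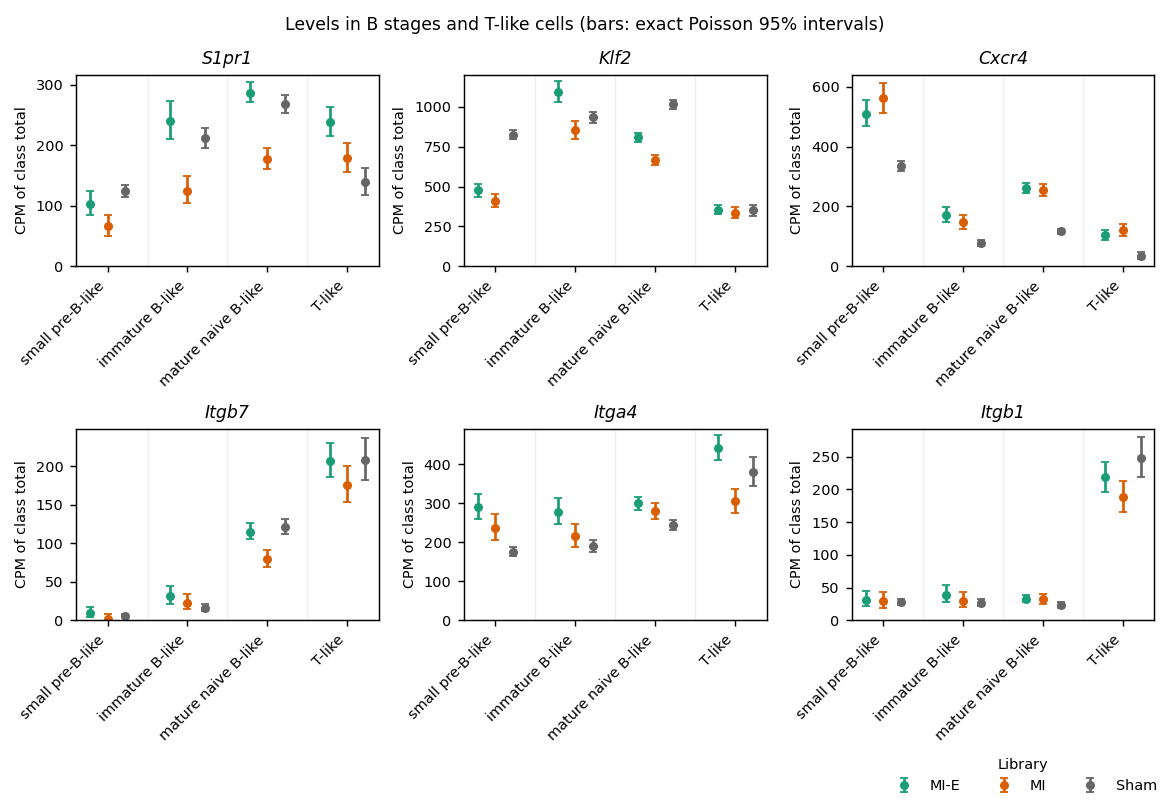
CPM (vertical axis, from 0) of S1pr1, Klf2, Cxcr4, Itgb7, Itga4 and Itgb1 in small pre-B-like, immature B-like, mature naive B-like and T-like cells of the MI-E, MI and Sham libraries, with exact Poisson 95% intervals as bars. S1pr1 was lowest in MI in the B stages and lowest in Sham in T-like cells, while Cxcr4 was lowest in Sham in all 4 classes.

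In T-like cells S1pr1 had 238 CPM in MI-E, 178 CPM in MI and 139 CPM in Sham, and MI-E exceeded Sham by 1.72-fold (95% interval 1.42 to 2.08), past the fold that 13.1% of all genes passed upward in this class. The MI and Sham intervals overlapped, and the T-like class was not split into helper and cytotoxic cells. Klf2 in the same cells was nearly level at 354 in MI-E, 337 in MI and 350.2 in Sham CPM, while Cxcr4 was at 103 in MI-E, 121 in MI and 34.9 in Sham CPM and Cd69 at 111 in MI-E, 132 in MI and 183 in Sham CPM. Basophil and mast-like cells also carried S1pr1, at 68.0 CPM in MI-E, 56.5 CPM in MI and 41.1 CPM in Sham. MI-E exceeded Sham there by 1.66-fold (95% interval 1.12 to 2.46), past the fold that 16.4% of all genes passed upward in this class. That value passed 1.5-fold under 6 of 10 alternatives and was lowest, at a log2 ratio of 0.21, with doublets kept. NK-like cells had 31.6 in MI-E, 43.4 in MI and 55.5 in Sham CPM with overlapping intervals.

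Outside these classes S1pr1 was scarce. Monocyte-like cells had 1.12 CPM in MI-E, 0.704 CPM in MI and 1.67 CPM in Sham. Patrolling monocyte-like cells had no S1pr1 UMI in MI-E, for which a limit of 3 counts is 7.99 CPM, none in MI, for which that limit is 8.32 CPM, and 2.20 CPM in Sham. Mature neutrophil-like cells had 4.68 in MI-E, 2.06 in MI and 12.8 in Sham CPM. Macrophage-like cells had 9.43 in MI-E, 13.5 in MI and 37.7 in Sham CPM, or 37.0% in MI-E, 122% in MI and 85.9% in Sham of the all-cell level of S1pr1. This class also held neutrophil RNA, with S100a8 and S100a9 at 91.1% in MI-E, 129% in MI and 134% in Sham of their all-cell level, and the part of RNA from other cells in its values was not tested.

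S1pr4 (mm10 chr10:81497747-81500132, minus strand), a receptor for the same lipid found mainly on blood cells, was spread more evenly, over lymphoid classes, basophil and mast-like cells and neutrophils. Its clearest difference lay in immature neutrophil-like cells, which had 102 CPM in MI-E, 108 CPM in MI and 65.9 CPM in Sham. MI exceeded Sham there by 1.64-fold (95% interval 1.39 to 1.94) and MI-E exceeded Sham by 1.54-fold (95% interval 1.30 to 1.84), while the MI-E and MI intervals overlapped. The MI value passed 1.5-fold under 9 of 9 alternatives and the MI-E value under 4 of 9. Dividing neutrophil precursor-like cells had 59.1 in MI-E, 63.2 in MI and 48.9 in Sham CPM and mature neutrophil-like cells 85.7 in MI-E, 89.9 in MI and 67.8 in Sham CPM, with the same order of libraries.

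In mature naive B-like cells S1pr4 had 89.1 CPM in MI-E, 99.0 CPM in MI and 112 CPM in Sham, and in small pre-B-like cells 68.8 in MI-E, 79.5 in MI and 70.1 in Sham CPM. Neither class repeated the low MI value of S1pr1. Stem and multipotent progenitor-like cells had 35.1 in MI-E, 38.8 in MI and 21.2 in Sham CPM, with MI above Sham by 1.83-fold (95% interval 1.20 to 2.84) and MI-E above Sham by 1.66-fold (95% interval 1.08 to 2.59). Both narrowed with doublets kept, to log2 ratios of 0.30 and 0.16. S1pr4 was lower in MI-E than in MI by 1.56-fold (95% interval 1.16 to 2.11) in plasmacytoid dendritic-like cells and by 1.53-fold (95% interval 1.10 to 2.14) in basophil and mast-like cells, and the second of these turned to a log2 ratio of 0.019 when cells were thinned. In conventional dendritic-like cells S1pr4 had 18.8 in MI-E, 30.1 in MI and 35.0 in Sham CPM, lower in MI-E than in Sham by 1.86-fold (95% interval 1.14 to 3.07). It was also lower there than in MI by 1.60-fold (95% interval 0.967 to 2.66), an interval that includes no difference.

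A list of 16 other genes of the sphingosine-1-phosphate axis (further receptors, kinases, transporters, G proteins and transcription factors) gave 3 pairs higher and 16 lower of 109 in MI over Sham, 11 higher and 0 lower of 108 in MI-E over MI, and 14 higher and 13 lower of 113 in MI-E over Sham. The lower share in MI over Sham was 14.7%, against 5.08% of all pairs, and the higher share in MI-E over MI was 10.2%, against 4.11%. In MI-E over Sham the shares were 12.4% higher and 11.5% lower, against 12.1% and 4.46%. Its class medians ran between log2 ratios of -0.29 and 0.29 in MI over Sham, against -0.006 and 0.32 over all genes. Klf2 accounted for several of the low MI values: conventional dendritic-like cells had 146 in MI-E, 116 in MI and 299 in Sham CPM, plasmacytoid dendritic-like cells 204 in MI-E, 129 in MI and 285 in Sham CPM and monocyte-like cells 131 in MI-E, 102 in MI and 267 in Sham CPM. Spns2, which encodes an exporter of sphingosine-1-phosphate, had 139 CPM in MI-E, 125 CPM in MI and 89.4 CPM in Sham in stem and multipotent progenitor-like cells. Sphk1, a kinase that makes the lipid, had 134 in MI-E, 114 in MI and 83.4 in Sham CPM in erythroid-like cells, red cells being a main source of the lipid in blood. In this class 35.9% of all genes read were at least 1.5-fold higher in MI-E than in Sham, and TMM scaling moved the median gene by -0.47 on the log2 scale.

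Selplg (mm10 chr5:113818536-113832644, minus strand), which encodes PSGL-1, was highest in plasmacytoid dendritic-like and NK-like cells. In MI it was lower than in Sham in monocyte-like cells. Monocyte-like cells had 337 CPM in MI-E, 238 CPM in MI and 400.2 CPM in Sham, with none of the 3 intervals overlapping, and MI was below Sham by 1.68-fold (95% interval 1.63 to 1.74). The Ass1 and Nrg1 cluster, present in all libraries, gave 337 CPM in MI-E, 255 CPM in MI and 456 CPM in Sham, with MI below Sham by 1.79-fold (95% interval 1.71 to 1.87). Mature neutrophil-like cells, drawn from different clusters in Sham and in the other two libraries, had 802 CPM in MI-E, 577 CPM in MI and 427 CPM in Sham. There MI-E exceeded Sham by 1.88-fold (95% interval 1.77 to 2.00), and the 3 intervals were again apart. That value narrowed to a log2 ratio of 0.21 at clustering resolution 0.5, and MI over Sham, at 0.44, turned to -0.28, so whether MI was above Sham depended on the clustering.

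Along the neutrophil stages Selplg was higher in each later stage in every library. Dividing neutrophil precursor-like cells had 65.8 CPM in MI-E, 56.0 CPM in MI and 50.4 CPM in Sham. Immature neutrophil-like cells had 212 CPM in MI-E, 166 CPM in MI and 119 CPM in Sham, with MI-E above Sham by 1.78-fold (95% interval 1.57 to 2.02). Under the stricter cell filter this last difference turned to a log2 ratio of -0.32 and MI over Sham to -0.61, so the direction depended on the cell filter. Plasmacytoid dendritic-like cells had 861 in MI-E, 797 in MI and 797 in Sham CPM and T-like cells 452 in MI-E, 389 in MI and 441 in Sham CPM, close to level over the libraries. B classes were low, at 64.7 in MI-E, 84.0 in MI and 66.0 in Sham CPM in mature naive B-like cells, and erythroid-like cells were lowest, at 27.6 in MI-E, 28.9 in MI and 26.9 in Sham CPM.

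PSGL-1 binds selectins only once its sugars and sulphates are in place. Of the list of 15 selectins, other ligand carriers and enzymes that finish selectin ligands, 10 pairs were higher and 5 lower of 101 in MI over Sham, 6 higher and 2 lower of 101 in MI-E over MI, and 9 higher and 1 lower of 100 in MI-E over Sham. These are 9.9%, 5.94% and 9% higher, against the 8.68%, 4.11% and 12.1% of all pairs. In mature neutrophil-like cells Gcnt1, which builds the branched sugar core, had 95.5 CPM in MI-E, 78.5 CPM in MI and 50.3 CPM in Sham, and St3gal4, a sialyltransferase, had 63.1 in MI-E, 70.6 in MI and 32.7 in Sham CPM. Cd44, another selectin ligand carrier, had 269 in MI-E, 157 in MI and 283 in Sham CPM in plasmacytoid dendritic-like cells.

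Itga4 (mm10 chr2:79255426-79333123, plus strand, overlapped on the other strand by Cerkl) encodes the alpha-4 chain, which holds precursors to VCAM-1 on stroma. It was lower in MI than in Sham in monocyte-like cells. Every B stage with levels ran the other way, highest in MI-E and lowest in Sham, though the MI-E and MI intervals overlapped. Monocyte-like cells had 169 CPM in MI-E, 128 CPM in MI and 252 CPM in Sham, with all 3 intervals apart, and MI was below Sham by 1.96-fold (95% interval 1.88 to 2.05). The Ass1 and Nrg1 cluster had 111 CPM in MI-E, 82.3 CPM in MI and 148 CPM in Sham, with MI below Sham by 1.80-fold (95% interval 1.67 to 1.95). In monocyte-like cells 3 of the 8 members read were at least 1.5-fold lower in MI than in Sham, against 7.29% of all genes, and in the cluster the background was 6.95%. Both Itga4 values passed 1.5-fold under every alternative that could be run. Whether a different mix of monocyte stages or a different level per cell gave these values cannot be told apart. The clusters that make up the class differ between libraries, and the mix of stages within the Ass1 and Nrg1 cluster was not tested.

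Among the B stages with levels Itga4 was highest in pro-B-like cells, which had 564 CPM in MI-E, 539 CPM in MI and 429 CPM in Sham. Small pre-B-like cells had 289.9 CPM in MI-E, 237 CPM in MI and 175 CPM in Sham, and MI-E exceeded Sham by 1.66-fold (95% interval 1.45 to 1.88), past 1.5-fold under 9 of 9 alternatives. Immature B-like cells had 278 in MI-E, 216 in MI and 189.5 in Sham CPM and mature naive B-like cells 299 in MI-E, 279.7 in MI and 244 in Sham CPM. In each of these 3 later stages the MI-E interval lay above the Sham interval, and only in small pre-B-like cells did the ratio pass 1.5-fold.

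Among other classes, plasmacytoid dendritic-like cells had 239 CPM in MI-E, 149.8 CPM in MI and 229 CPM in Sham, with MI below Sham by 1.53-fold (95% interval 1.31 to 1.78) and MI-E above MI by 1.59-fold (95% interval 1.35 to 1.88). Those passed 1.5-fold under 5 of 10 and 6 of 10 alternatives. Basophil and mast-like cells had 107 CPM in MI-E, 63.8 CPM in MI and 62.4 CPM in Sham. MI-E stood above MI by 1.68-fold (95% interval 1.22 to 2.34) and above Sham by 1.72-fold (95% interval 1.26 to 2.36). Among all genes read in this class, 7.89% and 16.4% were at least 1.5-fold higher in these comparisons. NK-like cells had 502 in MI-E, 295 in MI and 646 in Sham CPM and patrolling monocyte-like cells 559 in MI-E, 336 in MI and 516 in Sham CPM, lowest in MI in both. Both classes had fewer than 200 cells in Sham and no ratio was taken. In neutrophil-like cells Itga4 was low, at 25.9 in MI-E, 21.7 in MI and 32.6 in Sham CPM, and MI was below Sham by 1.5-fold (95% interval 1.31 to 1.72), a value that passed 1.5-fold under 4 of 10 alternatives.

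Itgb1 (mm10 chr8:128685654-128733200, plus strand), the widely used beta-1 chain that makes VLA-4 with ITGA4, had no pair that passed 1.5-fold in any of the 3 comparisons. It was highest in NK-like cells, at 498 CPM in MI-E, 307 CPM in MI and 401 CPM in Sham, and lowest in B classes, at 33.0 in MI-E, 32.3 in MI and 22.9 in Sham CPM in mature naive B-like cells. Monocyte-like cells had 117 in MI-E, 95 in MI and 134 in Sham CPM, with MI lowest as for Itga4 but by a smaller ratio (-0.50 on the log2 scale, against -0.97 for Itga4).

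Itgb7 (mm10 chr15:102215995-102231944, minus strand), the other partner of ITGA4, was lower in MI than in Sham in the same monocyte classes and in mature naive B-like cells. Monocyte-like cells had 195 CPM in MI-E, 135 CPM in MI and 239 CPM in Sham, with MI below Sham by 1.77-fold (95% interval 1.69 to 1.84), past 1.5-fold under 8 of 10 alternatives. The Ass1 and Nrg1 cluster had 158 CPM in MI-E, 101 CPM in MI and 231 CPM in Sham, with MI below Sham by 2.29-fold (95% interval 2.14 to 2.45) and MI-E above MI by 1.57-fold (95% interval 1.47 to 1.67). In both the 3 intervals were apart and MI-E lay between MI and Sham, though with doublets kept MI-E over Sham in the whole class was a log2 ratio of 0.12. Mature naive B-like cells had 115 CPM in MI-E, 79.7 CPM in MI and 121 CPM in Sham, with MI below Sham by 1.52-fold (95% interval 1.29 to 1.79) (past 1.5-fold under 6 of 10 alternatives) and overlapping MI-E and Sham intervals.

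Itgb7 was also a gene of late B stages: pro-B-like cells had 11.1 in MI-E, 6.12 in MI and 5.43 in Sham CPM and small pre-B-like cells 9.96 in MI-E, 2.18 in MI and 6.22 in Sham CPM. Immature B-like cells had 31.1 in MI-E, 23.1 in MI and 15.7 in Sham CPM. MI-E was above Sham by 1.98-fold (95% interval 1.22 to 3.18), past the fold that 13.5% of all genes passed upward in this class. Conventional dendritic-like cells had the highest level, 360.2 CPM in MI-E, 259.9 CPM in MI and 286 CPM in Sham, followed by basophil and mast-like cells with 314 in MI-E, 233 in MI and 268 in Sham CPM. In stem and multipotent progenitor-like cells Itgb7 had 37.7 in MI-E, 41.4 in MI and 27 in Sham CPM, and the MI over Sham value of 1.53-fold (95% interval 1.04 to 2.29) turned to a log2 ratio of -1.02 with doublets kept. Macrophage-like cells had 21.2 in MI-E, 24.9 in MI and 76.6 in Sham CPM.

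Because ITGA4 is shared, the balance of its partners was read as the share of Itgb7 in the UMIs of Itgb1 and Itgb7 together. No statement follows from it on which gene was higher, since the 3' counts of different genes are not on one scale. The share was 14.3% in MI-E, 8.33% in MI and 7.29% in Sham in pro-B-like cells. It was 44.3% in MI-E, 43.4% in MI and 36.9% in Sham in immature B-like cells. Mature naive B-like cells had 77.7% in MI-E, 71.1% in MI and 84.1% in Sham, the largest of these stages in every library. The pro-B-like shares rested on 3 Itgb7 UMIs in MI-E, 1 in MI and 7 in Sham. In MI-E and MI their intervals overlapped those of immature B-like cells. In mature naive B-like cells the intervals were 74.2 to 81.0% in MI-E, 65.5 to 76.3% in MI and 81.2 to 86.7% in Sham, with MI-E just below Sham and overlapping MI. The Ass1 and Nrg1 cluster showed the same order with all intervals apart, at 58.0% in MI-E, 51.2% in MI and 64.1% in Sham. Small pre-B-like cells had 23.9% in MI-E, 6.90% in MI and 18.3% in Sham, resting on few Itgb7 UMIs, with wide intervals that overlapped. In MI this share was below that of pro-B-like cells, with overlapping intervals.

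**Figure D4:**
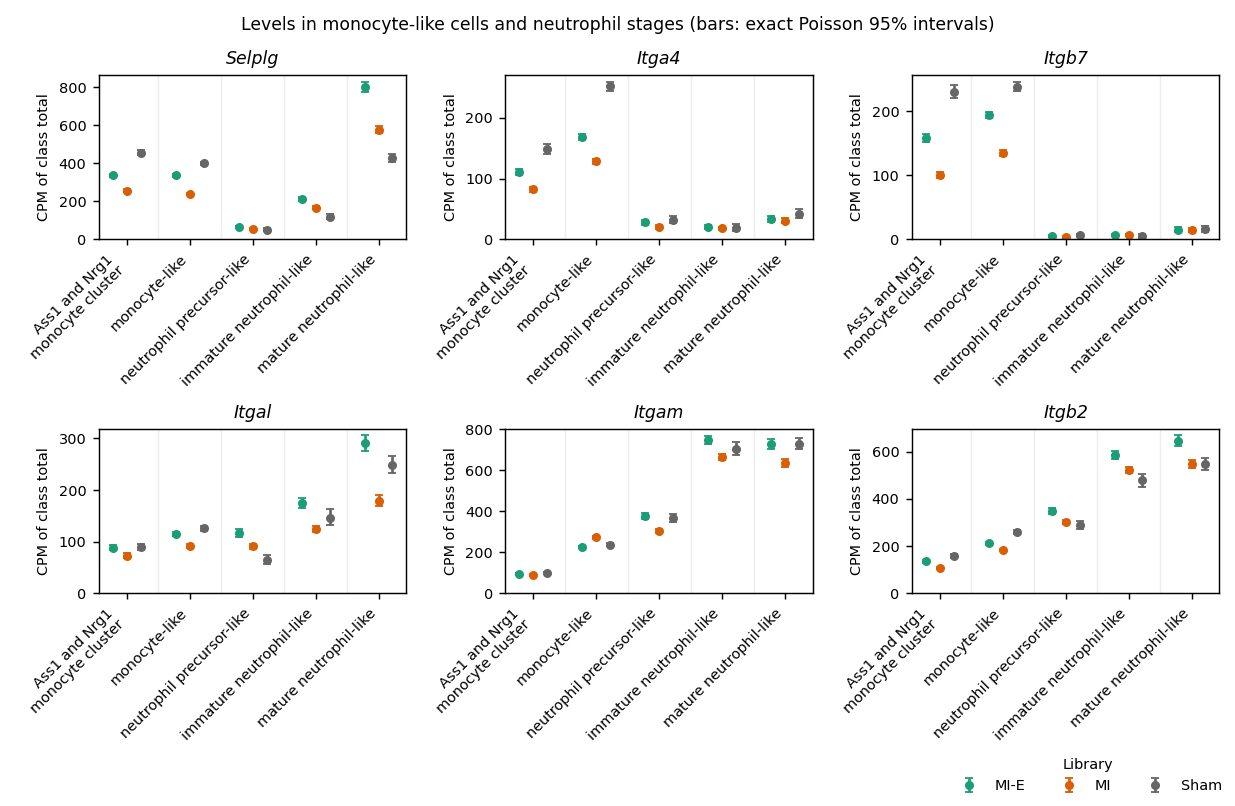
CPM (vertical axis, from 0) of Selplg, Itga4, Itgb7, Itgal, Itgam and Itgb2 in the Ass1 and Nrg1 monocyte cluster, all monocyte-like cells and the 3 neutrophil stages of the MI-E, MI and Sham libraries, with exact Poisson 95% intervals as bars. Selplg, Itga4 and Itgb7 were lowest in MI and highest in Sham in both monocyte groups, and Selplg was highest in MI-E in mature neutrophil-like cells (802 CPM).

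Promoters of Itga4 and Itgb7 are shown because both genes were lower in MI monocytes, and that of Itgam because it was high in neutrophils, where those were low. Each runs from 250 bases before to 50 after the RefSeq start (GRCm38.p6), 5′ to 3′ on the gene's strand. Capitals mark 3 searched motifs on either strand: GAGGAA, a core bound by PU.1-type ETS factors (TTCCTC on the other strand), TGTGGT, a core bound by RUNX factors (ACCACA), and GGGCGTGG, a core bound by KLF factors (CCACGCCC). Promoters were found for 5 of the 9 genes. Of 32851 promoters of the same length from 27025 genes, 28.3% held the ETS core, 16.8% the RUNX core and 5.33% the KLF core.
Itga4, chr2:79255176-79255475, plus strand: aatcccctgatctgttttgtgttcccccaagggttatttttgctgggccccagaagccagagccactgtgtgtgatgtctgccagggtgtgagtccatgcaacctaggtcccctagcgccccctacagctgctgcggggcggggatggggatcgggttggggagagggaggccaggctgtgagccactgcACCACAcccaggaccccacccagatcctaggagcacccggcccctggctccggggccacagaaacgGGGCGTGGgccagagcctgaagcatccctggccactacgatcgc
Itgb7, chr15:102231886-102232185, minus strand: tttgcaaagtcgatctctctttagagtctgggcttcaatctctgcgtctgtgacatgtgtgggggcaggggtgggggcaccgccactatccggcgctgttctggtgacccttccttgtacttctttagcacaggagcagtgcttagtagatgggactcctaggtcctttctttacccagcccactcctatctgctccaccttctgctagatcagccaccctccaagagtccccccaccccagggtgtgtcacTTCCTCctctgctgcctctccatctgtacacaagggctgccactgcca
Itgam, chr7:128062390-128062689, plus strand: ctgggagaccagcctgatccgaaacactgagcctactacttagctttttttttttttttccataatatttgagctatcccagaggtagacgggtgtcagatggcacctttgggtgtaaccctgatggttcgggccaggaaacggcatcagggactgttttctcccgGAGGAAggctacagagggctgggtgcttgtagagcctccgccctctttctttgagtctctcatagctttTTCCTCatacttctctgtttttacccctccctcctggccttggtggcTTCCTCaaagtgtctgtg
The Itga4 window held 1 RUNX core at -60 and 1 KLF core at 7 from the start, and no ETS core. The Itgb7 window held 1 ETS core at 3. The Itgam window held 3 ETS cores, at -84, -15 and 33. A match is a string of letters and not a bound site.

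Itgal (mm10 chr7:127296260-127335138, plus strand) encodes the alpha chain of LFA-1, which binds ICAM-1 and arrests lymphocytes and neutrophils on vessels. It was highest in NK-like and patrolling monocyte-like cells and was mostly lower in MI than in MI-E. Patrolling monocyte-like cells had 554 CPM in MI-E, 347 CPM in MI and 734 CPM in Sham, with no overlap of intervals. Their content of neutrophil transcripts differed too, with S100a8 and S100a9 at 21.4% in MI-E, 5.20% in MI and 56.5% in Sham of the all-cell level, and its part in the result was not tested. NK-like cells had 640.3 in MI-E, 353 in MI and 515 in Sham CPM.

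In MI-E, Itgal exceeded MI by 1.62-fold (95% interval 1.5 to 1.76) in mature neutrophil-like cells, by 1.58-fold (95% interval 1.36 to 1.84) in T-like cells, by 1.65-fold (95% interval 1.43 to 1.91) in plasmacytoid dendritic-like cells and by 1.64-fold (95% interval 1.18 to 2.30) in conventional dendritic-like cells. Mature neutrophil-like cells had 291 CPM in MI-E, 179 CPM in MI and 249 CPM in Sham. T-like cells had 329 CPM in MI-E, 208 CPM in MI and 294 CPM in Sham. Plasmacytoid dendritic-like cells had 324 CPM in MI-E, 196 CPM in MI and 224 CPM in Sham. The mature neutrophil, T and plasmacytoid dendritic values each passed 1.5-fold under 9 of 10 alternatives, and the conventional dendritic value under 6 of 9.

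The order of libraries differed between neutrophil stages. Dividing neutrophil precursor-like cells had 117 CPM in MI-E, 90.9 CPM in MI and 65.4 CPM in Sham, and MI-E exceeded Sham by 1.79-fold (95% interval 1.56 to 2.06), narrowing to a log2 ratio of 0.15 with doublets kept, where MI over Sham, otherwise 0.48, was -0.14. Immature neutrophil-like cells had 175 in MI-E, 125 in MI and 147 in Sham CPM. Sham was lowest in the dividing precursors, though not with doublets kept, and MI was lowest in the later stages. Conventional dendritic-like cells had 70.9 in MI-E, 43.2 in MI and 82.3 in Sham CPM, with MI below Sham by 1.90-fold (95% interval 1.36 to 2.69). Immature B-like cells had 85.4 in MI-E, 60.4 in MI and 52.0 in Sham CPM. MI-E was above Sham by 1.64-fold (95% interval 1.25 to 2.15), past the fold that 13.5% of all genes passed upward in this class. TMM scaling shifted log2 ratios of this comparison and class by -0.19.

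Itgb2 (mm10 chr10:77530252-77565708, plus strand) encodes the common beta chain of LFA-1 and Mac-1. It was highest in patrolling monocyte-like, neutrophil-like, macrophage-like and NK-like cells in every library. NK-like cells had 415 CPM in MI-E, 333 CPM in MI and 529 CPM in Sham. Patrolling monocyte-like cells had 607 CPM in MI-E, 419 CPM in MI and 642 CPM in Sham, the order in which the neutrophil transcripts of that class ran, and their part in the result was not tested. Neutrophil stages had higher levels in later stages, with 347 CPM in MI-E, 303 CPM in MI and 291 CPM in Sham in dividing neutrophil precursor-like cells and 645 CPM in MI-E, 547 CPM in MI and 546 CPM in Sham in mature neutrophil-like cells. MI-E was highest at each neutrophil stage, with no ratio past 1.5-fold. Monocyte-like cells had 212 in MI-E, 184 in MI and 260.1 in Sham CPM, with MI lowest. In immature B-like cells Itgb2 had 74.3 in MI-E, 64.4 in MI and 47.8 in Sham CPM. MI-E was above Sham by 1.56-fold (95% interval 1.16 to 2.07), past the fold that 13.5% of all genes passed upward in this class. TMM scaling shifted log2 ratios of this comparison and class by -0.19. Conventional dendritic-like cells had 254 in MI-E, 164 in MI and 215 in Sham CPM, with MI-E above MI by 1.55-fold (95% interval 1.31 to 1.84), past 1.5-fold under 5 of 9 alternatives.

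Itgam (mm10 chr7:128062640-128118491, plus strand, overlapped on the same strand by Gm49368) encodes CD11b, the alpha chain of Mac-1 that takes up complement-coated particles. At none of the 3 neutrophil stages, where it was high, did a ratio between libraries pass 1.5-fold. Immature neutrophil-like cells had 749.6 CPM in MI-E, 666 CPM in MI and 706 CPM in Sham. Mature neutrophil-like cells had 728 CPM in MI-E, 634 CPM in MI and 731 CPM in Sham. MI was lowest in both, and the MI-E and Sham intervals overlapped in mature cells. Dividing neutrophil precursor-like cells had 376 in MI-E, 303 in MI and 367 in Sham CPM and macrophage-like cells 462 in MI-E, 561 in MI and 339 in Sham CPM.

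In myeloid progenitor-like and erythroid-like cells, neutrophil transcripts differed between libraries beside Itgam. Myeloid progenitor-like cells had 51.4 CPM in MI-E, 43.0 CPM in MI and 113 CPM in Sham, lower than Sham by 2.62-fold (95% interval 2.36 to 2.90) in MI and by 2.19-fold (95% interval 1.98 to 2.42) in MI-E. Itgb2 in the same cells had 64.6 in MI-E, 56.0 in MI and 93.7 in Sham CPM, with MI below Sham by 1.67-fold (95% interval 1.51 to 1.85). S100a8 and S100a9 in this class stood at 37.1% in MI-E, 31.6% in MI and 129.7% in Sham of their all-cell level, and their part in the result was not tested. At clustering resolution 0.5 the MI over Sham log2 ratios were -0.35 for Itgam and -0.25 for Itgb2. In erythroid-like cells Itgam had 22.4 in MI-E, 28.9 in MI and 13.7 in Sham CPM and Itgb2 20.7 in MI-E, 27.9 in MI and 16.1 in Sham CPM, above Sham in MI by 2.10-fold (95% interval 1.62 to 2.74) and 1.73-fold (95% interval 1.35 to 2.23), past the fold that 19.3% of all genes passed upward in this class. S100a8 and S100a9 there stood at 6.44% in MI-E, 11.7% in MI and 5.55% in Sham of the all-cell level, and these Itgam levels were 9.13% in MI-E, 10.7% in MI and 8.09% in Sham of its all-cell level. Mature naive B-like cells, which do not carry Mac-1, had 10.7 in MI-E, 26.4 in MI and 7.28 in Sham CPM of Itgam, or 4.37% in MI-E, 9.83% in MI and 4.29% in Sham of the all-cell level.

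Conventional dendritic-like cells, with S100a8 and S100a9 at 2.59% in MI-E, 4.13% in MI and 1.64% in Sham of the all-cell level, had 203 CPM in MI-E, 292 CPM in MI and 165 CPM in Sham. MI exceeded Sham by 1.77-fold (95% interval 1.49 to 2.11), past 1.5-fold under 9 of 9 alternatives. With Itgal lower in MI in the same cells, the share of Itgam in the UMIs of Itgal and Itgam together was 74.1% in MI-E, 87.1% in MI and 66.8% in Sham. Patrolling monocyte-like cells gave 34.4% in MI-E, 49.6% in MI and 28.0% in Sham and monocyte-like cells 66.4% in MI-E, 74.8% in MI and 65.3% in Sham, in each highest in MI. The MI intervals lay above those of MI-E and Sham in all 3 classes. In the Ass1 and Nrg1 cluster the share was 52.2% in MI-E, 55.8% in MI and 52.4% in Sham. The MI interval there overlapped both others. S100a8 and S100a9 in monocyte-like cells stood at 13.6% in MI-E, 19.8% in MI and 3.78% in Sham of their all-cell level. Their part in the result was not tested. Mature naive B-like cells gave a share of 11.5% in MI-E, 28.3% in MI and 9.97% in Sham. Dividing neutrophil precursor-like cells had another order, with 76.3% in MI-E, 76.9% in MI and 84.9% in Sham, and the Sham interval lay above the other two. The share was 81.1% in MI-E, 84.2% in MI and 82.8% in Sham in immature and 71.5% in MI-E, 78.0% in MI and 74.6% in Sham in mature neutrophil-like cells, with all 3 intervals apart in the mature stage, and in T-like cells it was 2.84% in MI-E, 6.64% in MI and 3.61% in Sham.

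Further lists cover the genes around the integrins. Among 13 other integrin subunits, 5 pairs were higher and 4 lower of 24 in MI over Sham, 4 higher and 1 lower of 27 in MI-E over MI, and 6 higher and 1 lower of 26 in MI-E over Sham. The higher shares were 20.8%, 14.8% and 23.1%, against 8.68%, 4.11% and 12.1% of all pairs, and the lower shares 16.7%, 3.7% and 3.85%, against 5.08%, 2.6% and 4.46%. Itga1, an alpha chain of a collagen receptor that pairs with ITGB1, had 103 CPM in MI-E, 65.7 CPM in MI and 141 CPM in Sham in the Ass1 and Nrg1 cluster and 82.9 in MI-E, 45.5 in MI and 105 in Sham CPM in all monocyte-like cells, the same order of libraries as Itga4 and Itgb7. Itga2b had 803 in MI-E, 805 in MI and 506 in Sham CPM in basophil and mast-like cells. In this class 16.4% of all genes read were at least 1.5-fold higher than Sham in MI-E, and 10.6% in MI.

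A list of 16 genes that act on integrin activation held activators and inhibitors together. Of its pairs, 7 were higher and 3 lower of 167 in MI over Sham. The counts were 2 higher and 3 lower of 168 in MI-E over MI, and 12 higher and 4 lower of 166 in MI-E over Sham. The higher shares (4.19%, 1.19% and 7.23%) and the lower shares (1.8%, 1.79% and 2.41%) were all below the background of all pairs. Rassf5, which carries active RAP1 to LFA-1, was among the exceptions. Mature neutrophil-like cells had 278 CPM in MI-E, 255 CPM in MI and 150.5 CPM in Sham. Conventional dendritic-like cells had 159 in MI-E, 158 in MI and 79.0 in Sham CPM. Rassf5 in MI-E also exceeded Sham in further classes, such as basophil and mast-like (1.81-fold) and plasmacytoid dendritic-like cells (1.53-fold). In these classes 16.4% and 10.7% of all genes read were at least 1.5-fold higher in MI-E than in Sham. Fermt3 of the same list had 199 in MI-E, 182 in MI and 105 in Sham CPM in erythroid-like cells. Of 9 adhesion ligands, 11 pairs were higher and 2 lower of 27 in MI over Sham, 1 higher and 8 lower of 30 in MI-E over MI, and 6 higher and 2 lower of 26 in MI-E over Sham. The higher shares were 40.7%, 3.33% and 23.1%, against 8.68%, 4.11% and 12.1% of all pairs, and the lower shares 7.41%, 26.7% and 7.69%, against 5.08%, 2.6% and 4.46%. Fn1, which encodes fibronectin and is bound by ITGA4 with ITGB1, was among them: monocyte-like cells had 2727 CPM in MI-E, 3175 CPM in MI and 1835 CPM in Sham. Fn1 was also a monocyte marker used to name that class. It was counted in further classes at far lower levels, such as erythroid-like cells with 100 CPM in MI-E, 85.2 CPM in MI and 28.6 CPM in Sham. The highest class medians of the list, log2 ratios of 1.58 in MI over Sham and 1.81 in MI-E over Sham, were those Fn1 values. The counts therefore hold the same gene repeated over classes, and the part of RNA from other cells was not tested.

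Over all cells together the levels mixed these differences with different shares of the classes among the kept cells of each library. The plot of all-cell levels shows them with and without the class shares of Sham held. Cells outside the classes were kept in both as a group of their own, and the mix within that group was not held. S1pr1 had 25.5 CPM in MI-E, 11.1 CPM in MI and 43.9 CPM in Sham, a log2 ratio of -1.99 in MI over Sham, which became -0.59 when the class shares of Sham were applied to every library. The MI-E over MI ratio of 1.20 likewise became 0.64, and the MI-E over Sham ratio of -0.79 became 0.047. Itga4 had 149 CPM in MI-E, 104 CPM in MI and 190.3 CPM in Sham, and its MI over Sham ratio of -0.87 became -0.35. Itgam had 246 CPM in MI-E, 269 CPM in MI and 169.8 CPM in Sham, with 0.66 becoming 0.22, and Itgb2 had 236 CPM in MI-E, 225 CPM in MI and 174 CPM in Sham, with 0.37 becoming 0.0092. For Itgb7, at 98.9 in MI-E, 63.1 in MI and 96.6 in Sham CPM, the mix made almost no difference to MI over Sham, with -0.61 becoming -0.60. For the other 4 genes the adjusted MI over Sham ratio lay between -0.24 for Selplg and 0.30 for S1pr4.

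**Figure D5:**
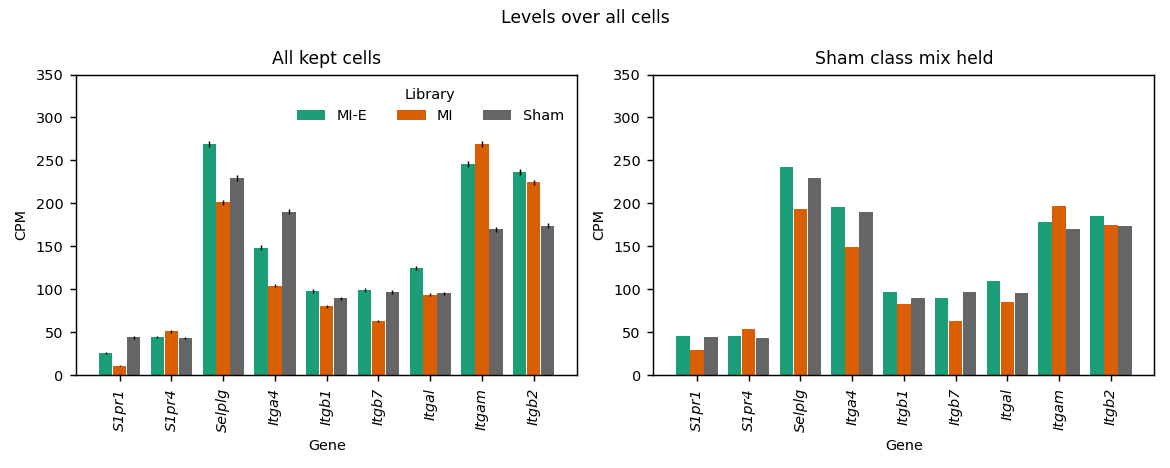
CPM of the 9 genes over all kept cells of the MI-E, MI and Sham libraries (left, with exact Poisson 95% intervals) and with the class shares of Sham applied to every library (right, no intervals). Bars start at 0. The MI bar of S1pr1 stood at 11.1 CPM on the left and 29.2 CPM on the right, against 43.9 CPM for Sham in both.

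Genes with the most similar pattern were sought by Pearson correlation of log2(CPM + 10) over 48 points, 16 classes in each of 3 libraries, among 6396 genes with a mean of at least 20 CPM. Points share libraries and clusters, and the values are a description. S1pr1 was most like BE692007 (0.88) and Gimap1 (0.87), S1pr4 like Ripor2 (0.85) and Tbc1d10c (0.83), and Selplg like Rnf166 (0.87) and Abr (0.85). Itga4 was most like Tpp2 (0.82) and Ubn2 (0.80), Itgb1 like Spn (0.83) and Osbpl3 (0.81), and Itgb7 like Gpr183 (0.85) and Tnfaip8l2 (0.82). Itgal was most like Arhgap9 (0.86) and Rnf166 (0.85), Itgam like Msrb1 (0.93) and Mcemp1 (0.92), and Itgb2 like Myo1f (0.90) and Rap1gap2 (0.90). Spn, Gpr183 and Msrb1 were among the markers that named classes.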

How the data were processed

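Droplet libraries of marrow cells from 3 groups (MI-E, MI and Sham, 1 library each) were analysed. The deposited matrices hold UMI counts per gene and barcode, made with Cell Ranger 5.0.1 on mm10 per the submitters' processing notes. Other settings are not given in the sources used here. Library totals were 109451500 UMIs in MI-E, 127330601 in MI and 99657072 in Sham.

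Kept barcodes had 300.0 genes or more, 500.0 UMIs or more and no more than 10% of UMIs from mitochondrial genes. Doublets were called per library by simulation as in Scrublet and removed: 2890 (12.8%) in MI-E, 2996 (12.8%) in MI and 3780 (15.1%) in Sham. Cells were clustered with scanpy 1.11.5 and leidenalg 0.10.2 on 2000 variable genes, without integrin, selectin and S1P receptor genes, at resolution 1. A cluster was named X-like from at least 3 detected markers, none of them one of the 9 genes. To be named mature naive B-like, a cluster also needed Ighd at 0.5 or more of its highest B cluster. Otherwise the type with the next marker score was taken. The immature B-like cluster was named by this rule, with scores of 0.656 for mature naive B and 0.515 for immature B. The 1446 cells in no class or in a class of under 50 cells per library were left out of the class values. They were kept in the all-cell levels. Among them were large pre-B-like cells, whose larger cluster held 84 MI-E, 14 MI and 1011 Sham cells. A difference from the study's own cell types may come from these rebuilt names.

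Counts were summed per class and library and divided by the class total. Levels carry exact Poisson intervals, ratios exact conditional binomial intervals and shares Clopper-Pearson intervals, all at 95%. UMIs remove PCR copies but the intervals leave out the spread between animals. Genes outside the 9 were named by rule: the 2 of a list with the largest ratio in a class at a mean of at least 50 CPM, plus Klf2, Cd69 and Cxcr4 beside S1pr1. The values of 1 further gene that this rule names are not reported here. The 9 genes and all lists were chosen with earlier results of these data known. Count functions were tested on simulated data. Gene positions are from mm10 with the GENCODE M21 annotation. Alternatives changed the cell filter, doublets, clustering, depth, scaling, weight of cells and top cell. Reads of overlapping genes may be split between them: Itga4 overlaps Cerkl and Itgam overlaps Gm49368.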

Additional observations from a re-analysis of the deposited data

How the results depend on the processing

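No paired analysis was possible because each group is 1 library. Of the pairs at least 1.5-fold apart, MI over Sham higher (7) became 3 with doublets kept, 4 with median-of-ratios scaling and 4 under the stricter cell filter, and lower (12) became 7 with 4000 variable genes. MI-E over MI higher (9) became 14 in cells thinned to 1000 UMIs and 4 under the stricter filter, and lower (4) became 1 with doublets kept and 0 under the stricter filter. MI-E over Sham higher (8) became 4 with doublets kept, 16 when thinned, 5 with TMM scaling and 5 under the stricter filter. Lower (2) became 1 with doublets kept, 0 at resolution 0.5 and 5 with TMM or median-of-ratios scaling. The other counts stayed within 1.5 times. The stricter filter and resolution 0.5 read fewer pairs.

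In all, 6 called ratios changed sign, as log2 values: in MI over Sham, Itga4 in neutrophil precursors when thinned (0.028), Itgb7 in stem and multipotent progenitor-like cells with doublets kept (-1.02), Itgb2 in the same class with doublets kept (-0.10) and Itgam in plasmacytoid dendritic-like cells under the stricter filter (-0.28). In MI-E over MI it was S1pr4 in basophil and mast-like cells when thinned (0.019), and in MI-E over Sham Selplg in immature neutrophil-like cells under the stricter filter (-0.32). The causes were not tested. Scaling moved the median gene by over 0.1 most in erythroid-like cells (TMM, -0.32 in MI over Sham and -0.47 in MI-E over Sham).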
